A study of Mus musculus with 8 samples.

Results

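The genes described here code for the proteins that bring glucose into the heart, split it to pyruvate and lactate, and store it as glycogen. The list was fixed by name and holds 33 genes, of which 28 were measured by a probe set with a single gene symbol, among 19938 such genes in all. Gapdh was annotated only on probe sets shared with several genes and is not reported, and Gpi1, Pfkfb1, Eno1 and G6pdx are not named in the platform annotation used here. The samples were myocardial tissue of male CH3 mice (8 to 10 weeks old, 25 to 30 g). All had the left anterior descending coronary artery occluded for 45 minutes and reopened for 2 hours. At 1 hour before ligation, mice were given phosphate-buffered saline (placebo, 4 samples) or recombinant DJ-1 protein (4 samples), the product of the Parkinson disease gene Park7. Both groups had the ischaemic injury, so the arrays give no level for an uninjured heart, and the labels do not say which part of the heart was taken.

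Glycolysis turns glucose into pyruvate with a small yield of ATP that needs no oxygen, and lactate dehydrogenase then turns pyruvate into lactate so that the pathway can go on. The beating heart mainly burns fatty acids and lactate, and it turns to glucose and to its glycogen store during ischaemia. Most steps are run by several isozymes coded by different genes, and striated muscle has forms of its own for many of them. Flux is set largely by glucose transporters moving to the membrane, by phosphorylation and by metabolites, none of which a transcript level shows.

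All values are log2 expression values from 8 arrays, and lists of 4 values follow the replicate numbers 1 to 4. Array medians lay between 5.25 and 5.35, and correlations between arrays between 0.978 and 0.987. DJ-1 replicates 3 and 4 stood apart on the first principal component of all genes, with scores of 19.6 and 23.5. The other 6 arrays scored from -15.0 to 5.31. Member differences that rest on DJ-1 replicates 3 and 4 are given without them too. The codes of the samples number all placebo hearts before all DJ-1 hearts. Should they reflect the order of handling, batch and treatment cannot be told apart. Tissue identity was checked on markers: all 14 ventricular cardiomyocyte markers were above the background level, and their mean ranged from 12.54 to 12.71 in placebo and from 12.48 to 12.64 in DJ-1 hearts. As a guide to the background, 1027 olfactory receptor genes, which heart hardly transcribes, lay at a median of 3.26, with their 95th percentile at 4.74. Probe sets bind their targets with different strength, so a gap between 2 genes on this scale is not a ratio of their transcripts, and in bulk tissue fewer cells of a type and less RNA per cell cannot be told apart. Erythroid markers, of which 5 of 10 were measured, had means of 5.72 to 5.98 in placebo and 6.01 to 6.34 in DJ-1 hearts, without overlap. Taken singly, Slc4a1 was without overlap, as were 3.22% of all genes, whereas Alas2, Hemgn, Klf1 and Epb42 overlapped. Of these markers 2 had an unadjusted p under 0.05 by limma, against 5.99% of all genes, and 0 passed an adjusted p of 0.05. Neutrophil markers are given beside the members that their mean moved with.

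Many members share a short motif upstream of their start, searched for after their values had been seen. The letters ACGTG are a core form of the hypoxia response element, the site bound by hypoxia-inducible factors, which are known to drive many glycolytic genes. These 5 letters were searched on both strands of the 250 bases before each start in RefSeq (GRCm38.p6), which held 32 of the 33 members with 50 starts. At least 1 match was present at 19 of the 50 starts (38%), against 16.6% of all 32851 starts of the same length, and at 1 or more starts of 15 of the 32 members (46.9%), against 18.5% of 27025 genes. The members' upstream regions were also richer in G and C, with a median of 60% against 52.4%, and held a median of 13 CG dinucleotides against 6. The parts of base composition and of the number of starts per gene in these counts were not tested. The palindrome CACGTG holds a match on each strand. Below are the lactate dehydrogenase genes Ldha and Ldhb, the subunits of one enzyme, and Pfkfb3 and Slc16a3, which varied most between hearts together with Pfkfb2 and Pgam1. Capitals mark the matches. For genes with several starts the one with most matches is shown. The other of the 2 Ldha starts had 0 matches, as did the single Ldhb start, and the other Pfkfb3 start had 1.

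Ldha, chr7:46845554-46845803, plus strand: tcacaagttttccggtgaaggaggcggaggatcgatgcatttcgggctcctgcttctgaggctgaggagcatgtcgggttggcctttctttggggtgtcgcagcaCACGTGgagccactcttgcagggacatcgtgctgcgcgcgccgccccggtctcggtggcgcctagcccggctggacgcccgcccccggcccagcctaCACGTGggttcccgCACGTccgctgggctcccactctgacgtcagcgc
Ldhb, chr6:142507958-142508207, minus strand: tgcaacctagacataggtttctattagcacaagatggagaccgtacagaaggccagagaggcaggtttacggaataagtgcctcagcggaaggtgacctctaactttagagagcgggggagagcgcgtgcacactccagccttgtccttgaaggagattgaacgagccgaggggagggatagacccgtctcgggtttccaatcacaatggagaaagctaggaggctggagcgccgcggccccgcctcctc
Pfkfb3, chr2:11502091-11502340, minus strand: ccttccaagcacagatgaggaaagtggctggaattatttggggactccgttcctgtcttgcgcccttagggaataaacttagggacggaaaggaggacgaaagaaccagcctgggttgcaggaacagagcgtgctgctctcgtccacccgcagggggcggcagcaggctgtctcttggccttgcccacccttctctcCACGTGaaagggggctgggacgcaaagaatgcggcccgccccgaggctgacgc
Slc16a3, chr11:120948817-120949066, plus strand: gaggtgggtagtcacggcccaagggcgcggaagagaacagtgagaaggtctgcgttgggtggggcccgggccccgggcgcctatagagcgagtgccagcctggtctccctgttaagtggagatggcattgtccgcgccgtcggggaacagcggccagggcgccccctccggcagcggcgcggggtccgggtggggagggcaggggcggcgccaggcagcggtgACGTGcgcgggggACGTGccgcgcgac

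The printed Ldha region held 5 matches at 3 places. The Slc16a3 region held 2 matches at 2 places and the Pfkfb3 region 2 matches at 1 place. No match to these letters was found in the Ldhb window. Other letter forms of the response element were not searched for, so a count of 0 does not show that a window lacks one. A match describes the letters and does not show that a factor was bound in these hearts.

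No member passed the test of a difference between DJ-1 and placebo hearts. In the limma comparison 0 of 28 members passed an adjusted p of 0.05 over all genes, as did 0 of all 19938 genes (0%). At an unadjusted p under 0.05 there were 0 members, against 1194 of all genes (5.99%), and the smallest unadjusted p of a member was 0.186, for the hexokinase gene Hk2. In no member did the values of the DJ-1 arrays lie wholly above or below those of the placebo arrays, against 3.22% of all genes. The mean was higher with DJ-1 for 16 of the 28 members and lower for 12. The differences ranged from -0.15 to 0.22 around a median of 0.01, and the median over all genes was 0.01. With each array centred on its median, which shifts every difference by the same amount and the median of all genes to -0.03, 10 members were higher and 18 lower. Quantile normalization gave 15 higher and 13 lower, and cyclic loess 17 and 11.

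The intervals set limits on the difference in array signal that could have been missed, which need not equal the difference in transcript. The 95% confidence interval lay within 1.25-fold either way for 19 of 28 members (67.9%), against 36.8% of all genes and 60.2% of the 1235 genes within 1 log2 unit of the members' median level. Hk1 is counted here on its probe set of highest mean. On its other probe set the interval ran from -0.39 to 0.08, beyond 1.25-fold. For the aldolase gene Aldoa, the pyruvate kinase gene Pkm and the phosphoglycerate kinase gene Pgk1 the interval reached at most 1.16-fold in either direction. The widest intervals were those of Pfkfb3, which reached 1.85-fold, Pfkfb2 with 1.52-fold and Pgam1 with 1.52-fold.

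Glucose enters cardiomyocytes through Glut4, coded by Slc2a4 and moved to the surface by insulin and ischaemia, and through Glut1, coded by Slc2a1. Slc2a4 was at 10.64 ± 0.19 with placebo and 10.59 ± 0.13 with DJ-1 (SD, n = 4 each), a difference of -0.05 (95% confidence interval -0.30 to 0.20). Slc2a1 was at 8.64, 8.09, 8.04 and 8.23 in the placebo hearts and at 8.21, 8.33, 8.34 and 8.28 in the DJ-1 hearts. The DJ-1 values lay between the lowest and the highest placebo values. Both transporters were above every one of the olfactory receptor genes. The liver and intestinal transporters Slc2a2 and Slc2a5 were within the olfactory receptor range, at 4.15 and 4.42 over all arrays.

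Hexokinase traps glucose as glucose 6-phosphate. Hk2, the insulin-responsive form of muscle, had the largest negative difference among the probe sets of highest mean. It was at 9.29, 9.11, 9.14 and 9.36 in the placebo hearts and at 9.14, 8.91, 9.26 and 8.99 in the DJ-1 hearts. DJ-1 and placebo means thus differed by -0.15 (SE 0.11, interval -0.38 to 0.08, adjusted p = 0.844). The lowest 2 values were both from DJ-1 hearts, while the other 2 DJ-1 values lay among those of placebo. With each array left out in turn it ran from -0.21 to -0.09, so it kept its sign.

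Hk1 shows how much a level can depend on the probe set. The probe set of highest mean stood at 11.59 ± 0.19 with placebo and 11.64 ± 0.13 with DJ-1 (SD, n = 4 each), a difference of 0.04. It is annotated by a single sequence record and by no RefSeq mRNA, and that record is also listed on 16 probe sets shared with the ribosomal protein gene Rpl17. Across the 8 arrays this probe set correlated with those 16 at 0.803 to 0.916, given as a description, whereas the other Hk1 probe set, which lists RefSeq mRNAs of Hk1, correlated with them at -0.495 to -0.24. The RefSeq probe set was at 9.23, 8.92, 8.98 and 9.27 in the placebo hearts and at 8.81, 8.97, 9.06 and 8.93 in the DJ-1 hearts. Its difference was -0.16 (SE 0.11, 95% confidence interval -0.39 to 0.08, adjusted p = 0.838), of the opposite sign, and close in value to that of Hk2. Statements on the balance of Hk2 and Hk1 therefore use the RefSeq probe set, a choice made after these values were seen. The myeloid hexokinase Hk3 and Hkdc1 were within the olfactory receptor range.

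**Figure D1:**
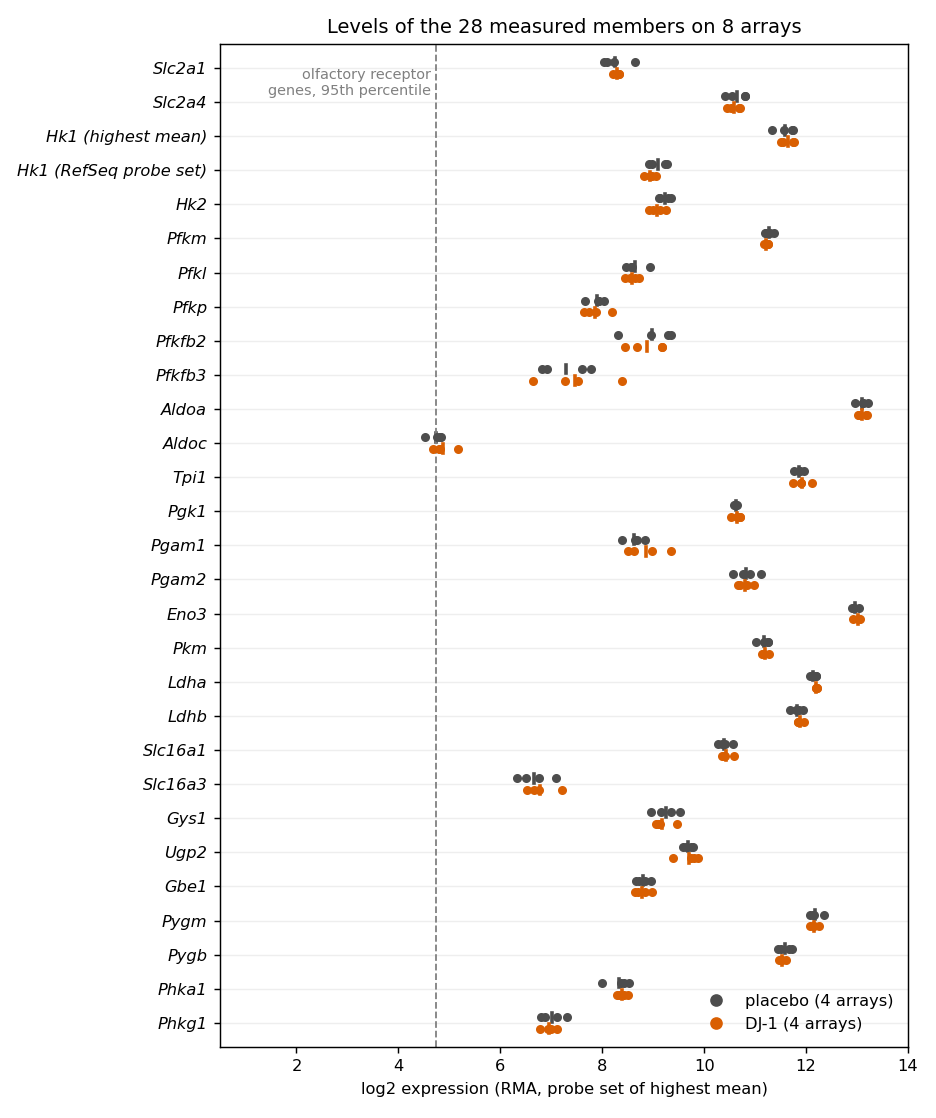
Log2 expression of each measured member on every array (points; 4 placebo, 4 DJ-1), with group means as bars and the 95th percentile of the olfactory receptor genes as a dashed line; Hk1 is shown for both of its probe sets. Aldoc lies at the dashed line, and placebo and DJ-1 points overlap for every member.

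Phosphofructokinase commits sugar to glycolysis. The muscle subunit gene Pfkm was at 11.26 ± 0.08 with placebo and 11.22 ± 0.03 with DJ-1 (SD, n = 4 each), and the difference of -0.05 (95% confidence interval -0.23 to 0.14) was among the tightest. The liver subunit gene Pfkl was at 8.64 ± 0.20 and 8.59 ± 0.12, and the platelet subunit gene Pfkp at 7.89 ± 0.16 and 7.86 ± 0.24. All subunits were thus detected, with Pfkm at the highest signal of the 3, and its standard deviation over the 8 arrays was 0.06 against 0.16 for Pfkl and 0.19 for Pfkp.

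The bifunctional enzymes coded by Pfkfb2, the heart form, and Pfkfb3, the inducible form, make fructose 2,6-bisphosphate, the strongest activator of phosphofructokinase. They had the highest standard deviations of the members over the 8 arrays, 0.57 for Pfkfb3 and 0.39 for Pfkfb2, followed by Pgam1 with 0.302 and Slc16a3 with 0.300. The median was 0.15 over the members and 0.17 over all genes. Pfkfb2 was at 9.28, 8.31, 8.95 and 9.34 in the placebo hearts and at 8.68, 9.17, 9.18 and 8.45 in the DJ-1 hearts. The lowest values were those of placebo replicate 2 and of DJ-1 replicates 4 and 1, so low hearts occurred in both groups. Pfkfb3 was at 7.59, 7.78, 6.92 and 6.83 in the placebo hearts and at 7.53, 8.39, 6.65 and 7.27 in the DJ-1 hearts. Its highest and its lowest value both came from DJ-1 hearts. The differences were -0.10 (SE 0.23) for Pfkfb2 and 0.18 (SE 0.32) for Pfkfb3. Leaving out DJ-1 replicate 2 took the Pfkfb3 difference to -0.13, leaving out DJ-1 replicate 3 to 0.45, and leaving out both arrays that stood apart to 0.68. For Pfkfb2 it went to -0.32 when placebo replicate 2 was left out.

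Neutrophils enter reperfused myocardium early and live mainly from glycolysis. The mean of their markers, though not every marker, moved with Pfkfb3 and with the lactate exporter gene Slc16a3. The mean of the 15 neutrophil markers was 5.83, 6.57, 5.52 and 4.82 in the placebo hearts and 6.61, 6.81, 5.995 and 5.64 in the DJ-1 hearts, and 13 of the 15 were above background. The values of DJ-1 replicates 1 and 2 were above all placebo values. The median difference over the markers was 0.41, against 0.01 over all genes. Slc16a3 was at 6.76, 7.09, 6.50 and 6.32 in the placebo hearts and at 6.66, 7.21, 6.75 and 6.52 in the DJ-1 hearts, a difference of 0.12 (SE 0.18) that was -0.03 when DJ-1 replicate 2 was left out. Of the 15 markers 3 had an unadjusted p under 0.05, against 5.99% of all genes, and 0 passed the adjusted threshold. Taken singly, most markers were highest in DJ-1 replicate 2. Camp and Ltf were highest in DJ-1 replicate 3, Elane and Mpo in DJ-1 replicate 4, Csf3r in placebo replicate 1 and Retnlg in placebo replicate 2. Elane was lowest in DJ-1 replicate 2, at 4.81. Pfkfb3, Slc16a3 and the marker mean were each highest in DJ-1 replicate 2. Among the placebo hearts, replicate 2 had the highest value and replicate 4 the lowest for all 3. In DJ-1 hearts the lower values followed no common order. Slc2a3, the high-affinity transporter of leukocytes and neurons, which is not on the list, also had this order among placebo hearts, at 5.77, 6.07, 5.28 and 5.15, and was at 5.99, 6.24, 5.47 and 5.29 in the DJ-1 hearts. The part of these cells in the levels of Pfkfb3 and Slc16a3 was not tested.

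**Figure D2:**
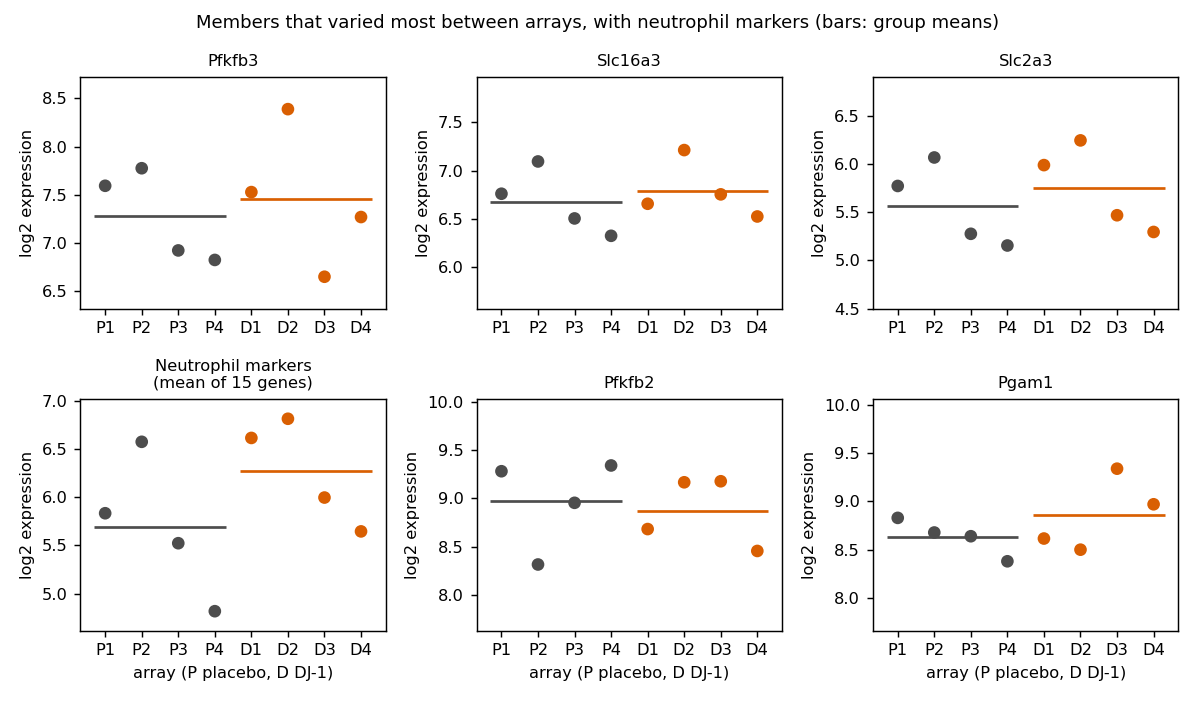
Log2 expression on each array (P1 to P4 placebo, D1 to D4 DJ-1; bars are group means) of Pfkfb3, Slc16a3, Slc2a3, the mean of 15 neutrophil markers, Pfkfb2 and Pgam1, each panel spanning the same number of log2 units. Pfkfb3, Slc16a3, Slc2a3 and the mean of the neutrophil markers are highest in D2, whereas Pgam1 is highest in D3 and D4.

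Aldolase splits fructose 1,6-bisphosphate, and its isozymes gave the clearest contrast in level. Aldoa, the muscle form, ranged from 12.96 to 13.21 over the 8 arrays, with a difference of 0.003 (SE 0.09). Aldoc, the brain form, was at 4.82, 4.53, 4.84 and 4.76 in the placebo hearts and at 4.81, 4.68, 4.80 and 5.18 in the DJ-1 hearts. Its mean of 4.80 lay just above the olfactory receptor percentile of 4.74, and 96.0% of the olfactory receptor genes were below it. Its difference of 0.13 (SE 0.12) was 0.03 when DJ-1 replicate 4, the array with the highest value, was left out. Without DJ-1 replicates 3 and 4 the difference was 0.006. Of the isozymes on the list, Aldoc was the nearest to background.

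The lower steps were at high and even levels. Tpi1, which interconverts the triose phosphates, was at 11.87 ± 0.08 with placebo and 11.92 ± 0.15 with DJ-1 (SD, n = 4 each). Pgk1, the first ATP-yielding step, was at 10.62, 10.61, 10.64 and 10.59 in the placebo hearts and at 10.70, 10.64, 10.71 and 10.53 in the DJ-1 hearts. Its placebo values spanned under 0.1 units and lay inside the range of the DJ-1 values. All 3 singly named Pgk1 probe sets list the same mRNA, and 2 of them hold the same values, so signal from processed copies of the gene cannot be told apart. Pkm, pyruvate kinase of muscle, was at 11.17 ± 0.11 and 11.18 ± 0.06.

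Phosphoglycerate mutase and enolase each have a muscle gene. Pgam2, the muscle mutase, was at 10.83 ± 0.23 with placebo and 10.80 ± 0.14 with DJ-1 (SD, n = 4 each). Pgam1, the form of most other tissues, had the largest positive difference of the list, 0.22 (SE 0.17, 95% confidence interval -0.15 to 0.60, adjusted p = 0.848). It was at 8.83, 8.68, 8.64 and 8.38 in the placebo hearts and at 8.62, 8.50, 9.34 and 8.97 in the DJ-1 hearts. The excess came from DJ-1 replicates 3 and 4, the arrays that stood apart on the first principal component, and without them the difference was -0.07. The other Pgam1 probe sets gave 0.15 with lower levels, and all 3 list the same mRNA, so the same limit holds there. Eno3, the muscle enolase, was at 12.95 ± 0.06 with placebo and 13.01 ± 0.06 with DJ-1, a difference of 0.06 (95% confidence interval -0.13 to 0.24).

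Lactate dehydrogenase is a tetramer of the subunits coded by Ldha, which favours making lactate, and Ldhb, the heart subunit, which favours using it. Ldha was at 12.19, 12.11, 12.07 and 12.19 in the placebo hearts and at 12.21, 12.19, 12.22 and 12.20 in the DJ-1 hearts. The DJ-1 values lay in a narrow band, 3 of them just above the highest placebo value, and the difference was 0.06 (SE 0.08, adjusted p = 0.907). Ldhb was at 11.82 ± 0.11 with placebo and 11.88 ± 0.05 with DJ-1 (SD, n = 4 each). Both subunits were therefore well above background, and the arrays name no dominant one. The lactate carrier gene Slc16a1, coding for Mct1, was at 10.39 ± 0.12 and 10.43 ± 0.11, and the gene of its partner basigin, Bsg, at 12.01 ± 0.08 and 12.02 ± 0.08.

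Glycogen is built by glycogen synthase (Gys1) from the UDP-glucose that Ugp2 makes, with branches added by Gbe1. Gys1 was at 9.53, 8.96, 9.16 and 9.36 in the placebo hearts and at 9.13, 9.09, 9.46 and 9.05 in the DJ-1 hearts, a difference of -0.07 (SE 0.14). Its highest and lowest values both came from placebo hearts. Ugp2 differed by 0.01 (SE 0.12) around a mean of 9.70, and Gbe1 by -0.01 (SE 0.11) around 8.79. The liver synthase Gys2 was within the olfactory receptor range, at 3.50.

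Glycogen is broken down by phosphorylase, which phosphorylase kinase activates. Pygm, the muscle phosphorylase, was at 12.18 ± 0.12 with placebo and 12.16 ± 0.07 with DJ-1, and Pygb, the brain form, at 11.58 ± 0.13 and 11.53 ± 0.06 (SD, n = 4 each). Both forms, which the heart is known to hold, were far above background. The liver form Pygl was at 6.95 ± 0.15 and 7.02 ± 0.04. Of the kinase subunits, Phka1 was at 8.33 ± 0.23 and 8.39 ± 0.10. Phkg1, the muscle catalytic subunit, was at 7.10, 6.88, 6.80 and 7.31 in the placebo hearts and at 7.12, 7.00, 6.77 and 6.93 in the DJ-1 hearts, a difference of -0.07 (SE 0.13). All DJ-1 values of Phkg1 lay below the highest placebo value, and DJ-1 replicate 3 lay below every placebo value.

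The form of striated muscle gave the higher signal in the pairs of Slc2a4, Pfkm, Pfkfb2, Aldoa, Pgam2 and Pygm, but not in all pairs. Ldhb was slightly below Ldha, and Hk2 was near the RefSeq probe set of Hk1. Against the Hk1 probe set of highest mean, Hk2 differed by -2.37 with placebo and -2.56 with DJ-1. Only for Aldoa against Aldoc did 1 partner come near the background level, so for the other pairs both forms were above background and the arrays cannot rank their amounts. How the pairs moved together was followed within each array. Of 13 pairs written for this purpose 11 were measured, and in all 11 the groups overlapped. The balance held most closely between Ldhb and Ldha, which differed by -0.32 ± 0.08 with placebo and -0.33 ± 0.04 with DJ-1 (SD, n = 4 each), with a full range of 0.16 over the 8 arrays. Between Pygm and Pygb it was 0.60 ± 0.08 and 0.63 ± 0.11. Hk2 and the RefSeq probe set of Hk1 differed by 0.12 ± 0.06 and 0.13 ± 0.17. The balance of Pfkfb2 and Pfkfb3 was the widest of the pairs, at 1.69, 0.54, 2.03 and 2.52 in the placebo hearts and at 1.15, 0.78, 2.53 and 1.19 in the DJ-1 hearts. It spanned 1.99 over the 8 arrays, with wide and narrow gaps in both groups, and was lowest in placebo replicate 2 and DJ-1 replicate 2, the hearts with the highest Pfkfb3. Pgam2 minus Pgam1 was 2.20 ± 0.22 with placebo and 1.94 ± 0.32 with DJ-1, with the lowest values, 1.63 and 1.70, in DJ-1 replicates 3 and 4. The difference between the groups was -0.26, and without these arrays it was 0.017.

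**Figure D3:**
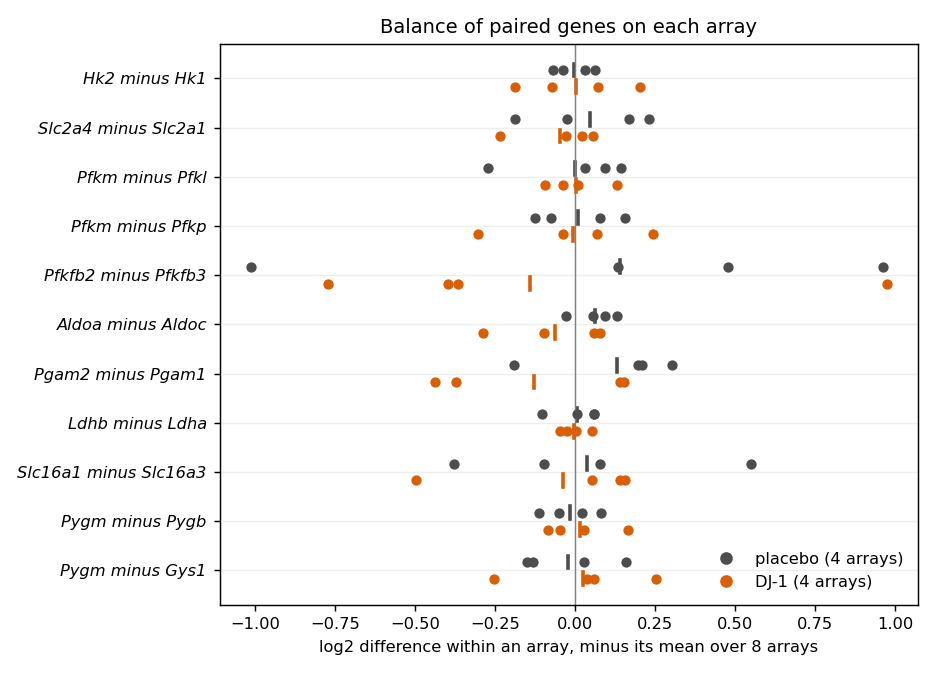
Difference in log2 expression between paired genes within each array, centred on its mean over the 8 arrays (points; bars are means of 4 placebo or 4 DJ-1 arrays), with the RefSeq probe set for Hk1. Placebo and DJ-1 points overlap in all 11 pairs, and Pfkfb2 minus Pfkfb3 has the widest spread.

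Placebo replicate 1 held the highest value of the 8 arrays for 8 of 28 members (28.6%), against 13.7% of all genes, and these were Slc2a1, Pfkl, Aldoa, Pgam2, Gys1, Pygm, Pygb and Phka1. DJ-1 replicate 3 also held the highest value for 8 members (28.6%), against 13.4% of all genes. Placebo replicate 2 held the lowest value for 10 members (35.7%), against 14.2% of all genes. The mean of 12 skeletal muscle markers was 6.99 in placebo replicate 1 and 6.16 to 6.50 in the other arrays. Atp2a1, the calcium pump of fast muscle, was at 6.99 in that array and between 5.24 and 5.64 in the other 7. The fast myosin gene Myh1 was at 5.85 against at most 4.74. Acta1, Mybpc2 and Tnni2 were at 11.37, 6.84 and 6.28 in placebo replicate 1. They were highest elsewhere: Acta1 at 11.78 in DJ-1 replicate 3, Mybpc2 at 7.10 in placebo replicate 2 and Tnni2 at 6.29 in DJ-1 replicate 4. The other markers were highest in placebo replicate 1, among them Ckm, which is also a cardiomyocyte marker here. Of the 12 markers 9 were above the olfactory receptor percentile on average, with Myh1, Myh2 and Myh4 within that range. Their part in the member values was not tested. Without placebo replicate 1, 22 members were higher and 6 lower with DJ-1, around a median of 0.04. Without placebo replicate 2, 12 were higher and 16 lower, around -0.03. In both fits 0 members passed an adjusted p of 0.05.

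A wider list held 60 other genes of sugar transport, glycolysis, gluconeogenesis, glycogen and the pentose phosphate pathway. Of these 57 were measured, 44 of them above the olfactory receptor percentile, and 0 passed an adjusted p of 0.05. Means were higher with DJ-1 for 29 of them and lower for 28, around a median difference of 0.004. At an unadjusted p under 0.05 there were 2 (3.51%), and the groups did not overlap for 3 (5.26%), shares that stand against 5.99% and 3.22% of all genes. The transketolase gene Tkt, of the pentose phosphate pathway, was at 6.70, 6.55, 6.57 and 6.63 in the placebo hearts and at 6.37, 6.43, 6.40 and 6.37 in the DJ-1 hearts. Every DJ-1 value lay below every placebo value, and the difference of -0.22 (SE 0.08, unadjusted p = 0.025) had an adjusted p of 0.824. The urate and sugar transporter Slc2a9 differed by -0.22 (SE 0.11, adjusted p = 0.824), with no overlap although the nearest values of the groups both round to 5.49, and the gluconeogenic gene Fbp1 was higher in all 4 DJ-1 hearts, by 0.40 (SE 0.14, adjusted p = 0.824), at levels of 2.95 to 3.85 that lie within the olfactory receptor range.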

How the data were processed

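Expression was measured on Affymetrix whole-transcript arrays from 100 ng of total RNA per sample with an RNA integrity number above 7, per the labels' protocols. The deposited table holds log2 values of 35556 probe sets, made by the authors with RMA, per the submitters' processing notes; its software and version, and the build of the annotation, are not given in the sources used. Gene names came from the platform annotation (1 symbol for 21789 probe sets, several for 1621, none for 12146). For the 999 genes with more than 1 singly named probe set, the one with the highest mean was used. DJ-1 was compared with placebo over all 19938 genes by limma 3.58.1 (lmFit, eBayes, two-sided) in R 4.3.3, without covariates and with Benjamini-Hochberg adjustment over all genes, after the code was tested on simulated data. Each difference is the DJ-1 mean less the placebo mean, in log2 units. The labels number the samples within groups and do not say outright that each came from a separate mouse, so p-values measure the spread between these samples, and 4 arrays per group limit the precision. The members and gene lists were chosen with earlier results of these data known. Values on every array are given for the 4 largest differences in each direction, and for Slc2a1, Pgk1, Ldha and the RefSeq probe set of Hk1, which were chosen after their values were seen. Alternatives were other scalings, variance models, filters, probe sets, a replicate block and left-out arrays.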

Additional observations from a re-analysis of the deposited data

Results flagged for a closer look

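No member had a value far from the rest of its group: 0 of the 56 groups of 4 values exceeded Dixon's 95% critical ratio of gap to range, where about 1 in 20, or 2.8, would be expected by chance. This test in groups of 4 finds only a single value far outside the others, so the pairs of high or low hearts described for Pfkfb2, Pfkfb3 and Pgam1 do not meet it.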

How the results depend on the processing

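No member passed an adjusted p of 0.05 in any of the 504 recomputed member differences (0), 54 of which changed sign. The differences of Hk2, Pfkm, Aldoc, Eno3, Ldha, Ldhb and Pygb kept their sign in all fits. After a change of sign the recomputed values were at most 0.157 in size. Pgam1 and Pfkfb3, at 0.22 and 0.18 in the main fit, were among the members that changed sign. The cause was not tested. With quantile normalization Aldoa was at -0.011, Pkm at -0.010 and Gbe1 at 0.010. With arrays centred on their medians Slc2a1 was at -0.0026, Aldoa at -0.039, Pgk1 at -0.015, Pkm at -0.029, Slc16a1 at -0.00060 and Ugp2 at -0.028. With cyclic loess Pfkp was at 0.011, Aldoa at -0.028 and Gbe1 at 0.019. Hk1 was at -0.057 as the mean of its probe sets and at -0.16 on the RefSeq probe set, an alternative chosen after seeing the data. On that probe set the difference in the balance of Hk2 and Hk1 was 0.01, against -0.19 on the probe set of highest mean. The move was smaller than the SDs of this balance on the probe set of highest mean, 0.28 with placebo and 0.22 with DJ-1. It was larger than those on the RefSeq probe set, 0.06 and 0.17. Without DJ-1 replicates 3 and 4 Aldoa was at -0.077, Pgam1 at -0.074, Pkm at -0.0058, Gbe1 at 0.10 and Phkg1 at 0.036, and 1 member (Pgk1) had groups without overlap. Without DJ-1 replicates 3 and 4 the balance of Pgam2 and Pgam1 went from -0.26 to 0.017. It was the 1 of 165 recomputed balance differences that moved by over 1 SD of the main fit.

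With 1 array left out at a time, the differences that changed sign ranged as follows: Slc2a1 -0.032 to 0.17, Slc2a4 -0.13 to 0.0035, Hk1 -0.041 to 0.094, Pfkl -0.11 to 0.047, Pfkp -0.14 to 0.044, Pfkfb2 -0.32 to 0.036, Pfkfb3 -0.13 to 0.45, Aldoa -0.044 to 0.041, Tpi1 -0.019 to 0.11, Pgam2 -0.13 to 0.058, Pkm -0.037 to 0.038, Slc16a1 -0.012 to 0.097, Slc16a3 -0.026 to 0.26, Gys1 -0.17 to 0.022, Ugp2 -0.045 to 0.12, Gbe1 -0.075 to 0.042, Pygm -0.060 to 0.033, Phka1 -0.047 to 0.13, Phkg1 -0.14 to 0.029. The number of members without overlap went from 0 to 1: Ldha without placebo replicate 4 or DJ-1 replicate 2, and Pgk1 without DJ-1 replicate 4. Genes past adjusted p 0.05 went from 0 to 1, a gene outside the list (Pramel27, adjusted p = 0.0440 by limma without DJ-1 replicate 3). With the replicate number as a block, 0 genes passed and the smallest adjusted p of a member was 0.832. The deviations of same-numbered arrays correlated at 0.005, 0.171, 0.177 and 0.008 for replicates 1 to 4. Not every pair was above 0.1, so the numbers were not taken as pairs. Signal over background limits Aldoc alone among the members.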
